A study of Oryctolagus cuniculus with 54 samples.

Results

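The passage from the canalicular to the saccular phase of rabbit lung development was examined in 12 fetuses whose lung RNA was read in the same sequencing run. The members were all run 1 libraries of these phases, 12 of the 54 libraries of the series, taken by day and run as labelled and not by their expression values. The canalicular group held 6 fetuses, 3 at gestational day 25 (F25) and 3 at day 27 (F27). The saccular group held 6, 3 at day 28 (F28) and 3 at day 29 (F29). All were New Zealand White rabbits with no treatment, delivered by caesarean section and killed at once, and each fetus of a time point came from a different dam according to the methods of the study. RNA came from homogenised whole right lung and was turned into libraries with QuantSeq FWD, a kit for sequencing the 3′ ends of messenger RNA. The study lets the canalicular phase end and the saccular phase begin at day 27. F27, grouped here as canalicular, thus lies at the boundary. Because phase and day move together, the comparison of phases is also a comparison of earlier with later days, and the effects of both cannot be told apart by the phase comparison alone. Of these animals, 4 were sequenced again in the other runs, and those repeat libraries were kept out of the comparison.

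In the canalicular phase the distal airways lengthen and widen into canals, capillaries grow close to the epithelium, and the cuboidal lining begins to separate into the flat type I and the surfactant-making type II cells. In the saccular phase the ends of the airways open into thin-walled sacs, the mesenchyme between them thins, and surfactant production matures. Whole-lung RNA holds every one of these cell types, so that fewer cells of a type and less RNA per cell cannot be told apart here. The table names genes by Ensembl identifier only, and the identifiers could not be paired with gene names, so that neither the tissue nor its cell types were checked against marker genes and the genes are described by their behaviour.

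Totals ran from 5771693 to 6610616 counts per library, and 15576 to 15958 genes had at least 1 count. The 10 most abundant genes took 7.69% to 12.9% of the counts. The mean total was 6122123 counts in the canalicular and 6298579 in the saccular group (n = 6 each; two-sided exact permutation test, p = 0.327). The mean share of the 10 most abundant genes was 9.83% and 11.2% (two-sided exact permutation test, p = 0.212), so that neither measure differed beyond the spread between animals.

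The largest source of variation among the 12 lungs followed the day of gestation. A principal component analysis of 14130 genes, on log2 CPM (counts per 1000000 counts of the scaled library) and without use of the labels, placed 30.1% of the variance on the first component and 10.8% on the second. On the first component the F25 lungs scored -35.8, -51.4 and -55.8, and the F27 lungs -24.7, -15.3 and 3.97. The F28 lungs scored 24.7, 23.6 and 19.1, and the F29 lungs 38.1, 43.9 and 29.6. No day overlapped with the next, and all 6 saccular lungs lay above all 6 canalicular lungs. The phase means were -29.8 ± 22.6 and 29.8 ± 9.45 (SD, n = 6), and a two-sided exact permutation test over all 924 divisions into 6 and 6 gave p = 0.00216, the smallest it can give. The second component did not separate the phases, with means of -0.42 and 0.42 (exact permutation test, p = 0.961), and its highest score, 43.2, belonged to animal 3 of F25.

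**Figure D1:**
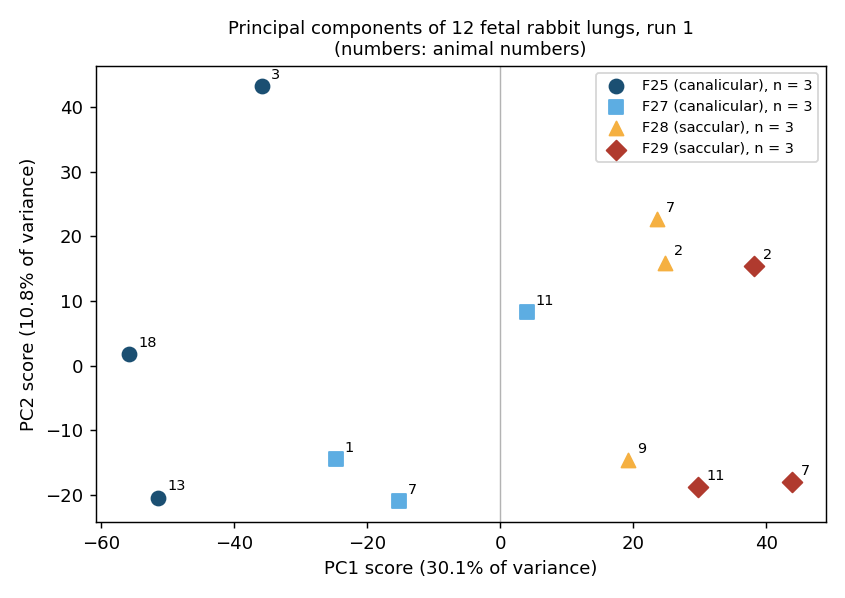
Scores of the 12 lungs on the first (x axis) and second (y axis) principal components of log2 CPM over 14130 genes, with 1 point per animal, coloured by day and labelled with the animal number. The days follow each other from left to right without overlap, and F27 animal 11, at 3.97, is the canalicular lung closest to the saccular lungs.

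Pairwise distances between the lungs, taken as the root mean square log2 difference per gene, gave the same order of days without a projection. Lungs of the same day differed on average by 0.703 at F25, 0.687 at F27, 0.669 at F28 and 0.656 at F29 (3 pairs each). Lungs of neighbouring days stood little farther apart than lungs of 1 day: the mean distance was 0.731 between F25 and F27, 0.720 between F27 and F28, and 0.680 between F28 and F29 (9 pairs each). The distance grew with the interval, to 0.856 between F25 and F28 and 0.924 between F25 and F29. These pairs share animals, so that the means are given as a description with no test.

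The canalicular phase was the more spread of the 2 phases on the first component, and 1 lung lay at its border. F25 and F27 lie farther apart in days than F28 and F29, and the part of this in the spread was not tested. F27 animal 11 had a mean distance of 0.673 from the F28 lungs, 0.697 from the other F27 lungs and 0.776 from the F25 lungs, and its nearest lung was F28 animal 2, at 0.654. Each of the other 11 lungs had its nearest neighbour within its own phase. F27 animal 11 was kept in its labelled group, and values without it are given beside the counts below.

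**Figure D2:**
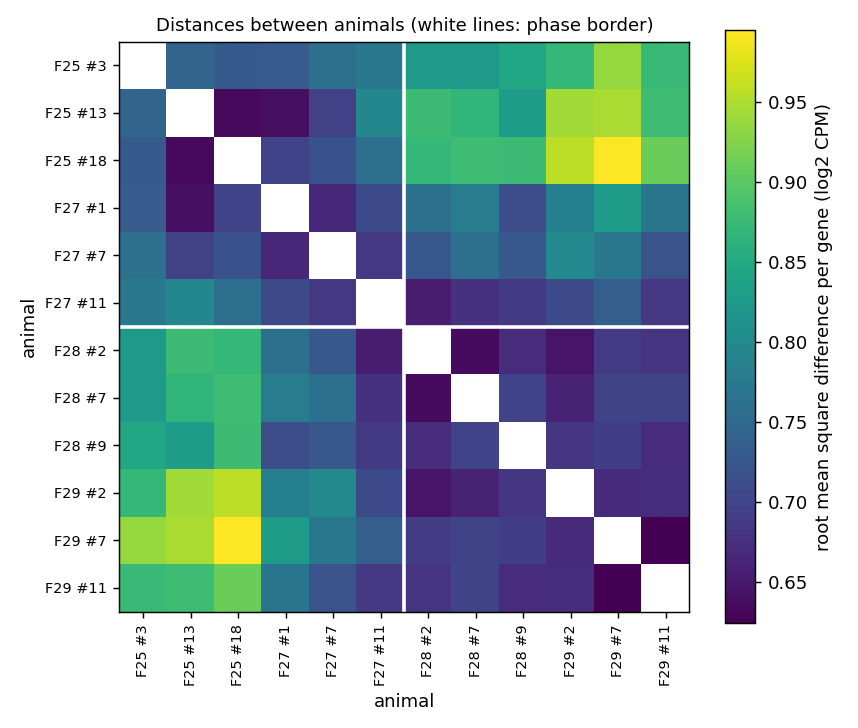
Distance between each pair of the 12 lungs (both axes list the animals in order of day; colour gives the root mean square difference per gene in log2 CPM; white lines mark the border between the phases). Distances rise from the same day to the F25 and F29 corner, where they average 0.924, while F27 animal 11 shows short distances to the F28 lungs.

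Between the phases, 766 genes differed, 459 higher and 307 lower in the saccular lungs. A gene was called when the fold change exceeded 2 and the adjusted p was at most 0.05 in edgeR's quasi-likelihood test, Benjamini-Hochberg adjusted over 14130 genes, so that the calls made up 5.42% of the genes tested, 3.25% in the higher and 2.17% in the lower direction. At the adjusted p alone, 1922 genes passed (13.6%), of which 1007 were higher and 915 lower, so that the difference between directions was smaller among changes of every size. The median log2 fold change over all genes tested was -0.01. Without F27 animal 11 the count rose to 961, and without F25 animal 18 it fell to 552.

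As a description of the called genes, those that rose had the larger fold changes. The median log2 fold change was 1.52 (2.87-fold) for genes called higher and -1.39 (2.62-fold) for genes called lower. A change above 4-fold was found for 109 of the 459 genes called higher (23.7%) and for 35 of the 307 called lower (11.4%), and a change above 8-fold for 22 and 11. All 6 saccular lungs lay above all 6 canalicular lungs in 236 of the 459 genes called higher, and below them in 126 of the 307 called lower. Over all genes tested, 3.18% lay above and 2.58% below without overlap (449 and 365 genes). In the remaining called genes at least 1 animal lay within the range of the other phase.

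Most called genes were of low or middle abundance, and few were switched fully on or off. The median level over the 12 lungs was 6.12 CPM for genes called higher, 10.1 CPM for genes called lower and 14.8 CPM for all genes tested. By level, 9.14% of the 4113 genes at 1 to 10 CPM were called, against 4.67% of the 5761 genes at 10 to 100 CPM, 2.42% of the 2191 genes at 100 CPM or more and 3.29% of the 2065 genes under 1 CPM. The share past the adjusted p alone rose with the level, from 3.29% under 1 CPM to 11.3%, 16.5% and 20.0% in the classes above it, while the median standard error of the log2 fold change fell from 0.64 to 0.30, 0.13 and 0.09. The abundant genes thus passed the p threshold more often but changed by more than 2-fold less often. Genes called higher made up 45 of the 68 called genes under 1 CPM, 247 of the 376 at 1 to 10 CPM, 133 of the 269 at 10 to 100 CPM and 34 of the 53 at 100 CPM or more.

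Of the called genes, 3 had no count in any animal of the lower phase. All 3 could pass the filter only through the phase with counts. The 2 absent from the canalicular libraries had 20 and 23 counts over the saccular lungs, which came from 5 of the 6 animals in each case. As shares of all counts these were 6.48 and 7.45 times a floor of 3 counts over the group. The gene absent from the saccular libraries had 21 counts over the canalicular lungs, with 2 to 7 in each animal, which was 7.20 times that floor. These ratios leave out the error of the higher count and the spread between animals, so that they are not lower bounds of the fold change. With so few counts an absence means less than the floor, and counts without molecular identifiers cover counting error only.

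**Figure D3:**
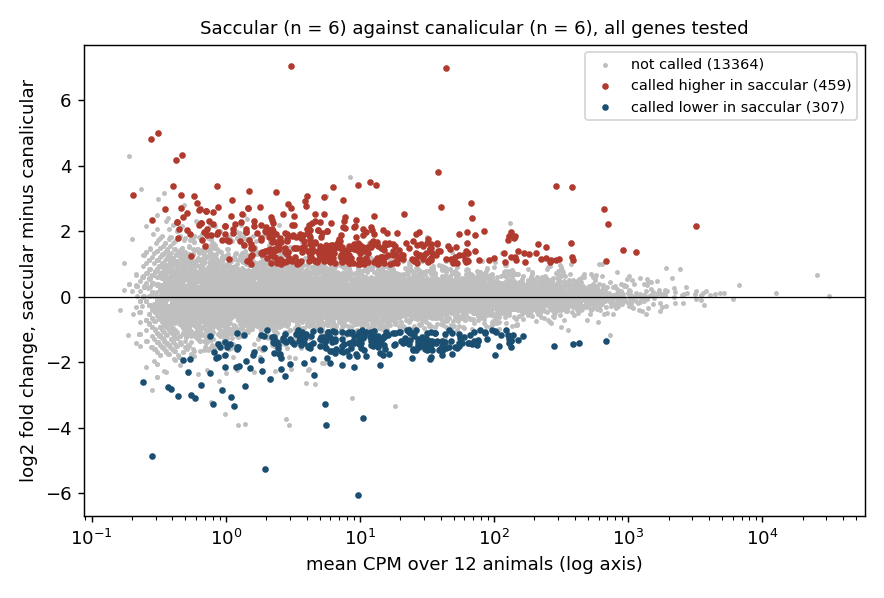
Log2 fold change between the 6 saccular and the 6 canalicular lungs (y axis) against the mean CPM over the 12 lungs (x axis, log scale), with 1 point per gene tested. The 459 genes called higher (red) and the 307 called lower (blue) stand out from the 13364 genes not called (grey), and most called genes lie below 100 CPM.

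In sum of counts, the called genes were a small part of the RNA, and both groups moved in every lung. Genes called higher held 0.699%, 0.624% and 0.510% of all counts in the F25 lungs and 0.965%, 1.07% and 1.61% in the F27 lungs. They held 2.28%, 2.51% and 2.33% in the F28 lungs and 3.27%, 3.16% and 2.82% in the F29 lungs. No day overlapped with the next, and the highest canalicular share was again that of F27 animal 11. Genes called lower went from 1.59% ± 0.07 at F25 to 0.941% ± 0.186 at F27, 0.569% ± 0.049 at F28 and 0.381% ± 0.058 at F29 (SD, n = 3 each). Because the genes were chosen by the contrast of the phases, these shares carry no test.

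The medians of the called genes moved in every interval, and most per day from F27 to F28. In genes called higher, the median log2 step was 0.77 from F25 to F27, an interval of 2 days (0.38 per day). It was 0.99 from F27 to F28 and 0.24 from F28 to F29. In genes called lower the medians were -0.69 (-0.35 per day), -0.76 and -0.41. The largest of the steps fell between F27 and F28 in 269 of the 459 genes called higher and 166 of the 307 called lower, between F25 and F27 in 155 and 110, and between F28 and F29 in 35 and 31. The choice of genes by phase uses the step between F27 and F28 most directly, so that this order is a description of the genes chosen. Levels moved in the direction of the call at every step in 308 of the 459 genes called higher (67.1%) and 240 of the 307 called lower (78.2%), and 12.8% of all genes tested rose and 12.4% fell at every step.

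**Figure D4:**
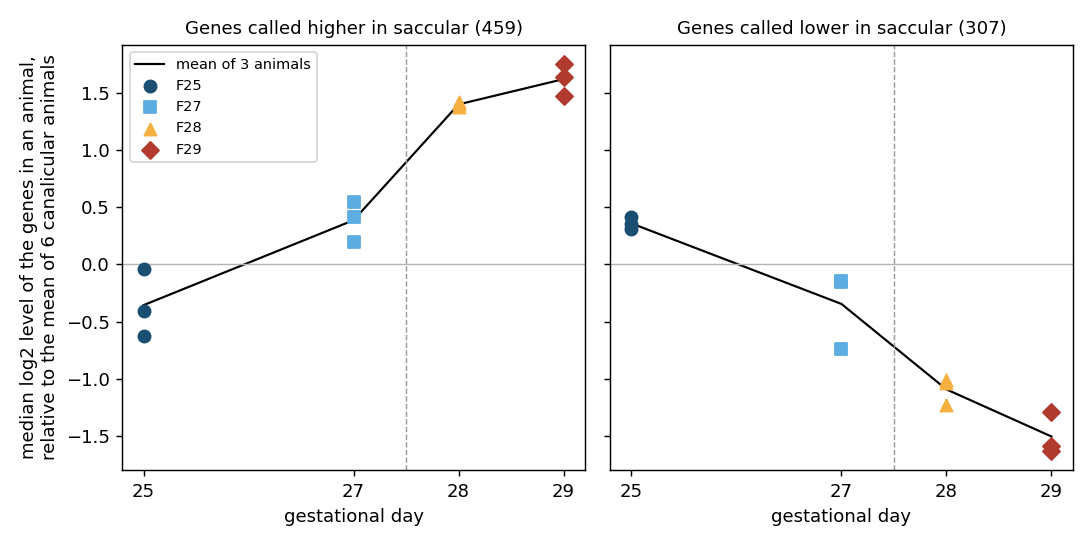
Median log2 level of the genes called higher (left) and called lower (right) in each of the 12 lungs, relative to the mean of the 6 canalicular lungs (y axis), by gestational day (x axis). Points are animals, the line joins the means of 3 animals, and the dashed line separates the days grouped as canalicular and saccular. Each set already moves in the direction of its call between F25 and F27, the day at which the study places the boundary. F27 animal 11 is the lowest F27 point on the right.

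Few genes were called between single days, and many between the outer days. With the time point as the factor and the same thresholds, edgeR's quasi-likelihood test, Benjamini-Hochberg adjusted called 1170 genes between F29 and F25 (8.28% of 14130), 716 higher and 454 lower. It called 1 gene between F27 and F25 (0.00708%) and 4 between F28 and F27 (0.0283%). Between F29 and F28 it called 0 genes (0%), with 897 genes at an unadjusted p under 0.05, and DESeq2 called 15 and limma-voom 0. At an unadjusted p under 0.05 there were 1910 genes between F27 and F25 and 1674 between F28 and F27. With no difference in any gene, a share of about 0.05 of the 14130 would pass this threshold. The counts of single days depended on the tool and on single animals: DESeq2 called 125 and 113 genes between F27 and F25 and between F28 and F27, limma-voom 0 in both, and without F27 animal 11 edgeR called 77 between F28 and F27. Without F25 animal 3 it called 49 between F27 and F25.

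The 5 genes called between single days are given by their values, having been singled out after these were seen. The gene called between F27 and F25 rose by 2.43 on the log2 scale (adjusted p = 0.0216, edgeR's quasi-likelihood test) and stood at 53.9 CPM in the canalicular and 212 CPM in the saccular mean. Of the genes called between F28 and F27, 3 rose, by 2.49, 1.03 and 1.53 (adjusted p = 0.0400, 0.0400 and 0.0416, edgeR's quasi-likelihood test). The first of them was the most changed in level, at 67.6 CPM in the canalicular and 692 CPM in the saccular mean. The fourth gene fell by 1.63 from F27 to F28 (adjusted p = 0.0400) and had a log2 difference of 1.62 in the opposite direction from F28 to F29, so that it was not called between the phases (log2 fold change -0.78, adjusted p = 0.126).

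Beside a steady change with the day, edgeR detected no separate step between the phases. A linear trend over the days passed the adjusted p in 2814 genes (19.9%), 1502 rising and 1312 falling. When the model held a straight line over the days and a step between F27 and F28, edgeR's quasi-likelihood test found 0 genes (0%) with a step, the lowest adjusted p being 0.334. An unadjusted p under 0.05 was reached by 840 of 14130 genes. A share of about 0.05 would reach it with no step in any gene. At the adjusted p, DESeq2 found 4 genes and limma-voom 0. With 4 days the line and the step overlap strongly, and a p that misses the threshold does not show that no gene had a step. This test was added after the data were seen.

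In genes chosen by the outer days alone, the F27 and F28 means lay between them. The choice makes F25 and F29 the ends, so that a place between them follows in part from it. The percentages are a description with no test. Among the 716 genes called higher at F29 than at F25, the F27 mean had covered a median of 45.9% of the log2 distance from F25 to F29 (quartiles 32.9% and 57.4%) and the F28 mean 82.7% (67.0% and 93.3%). A straight line over the days would give 50% and 75%. Among the 454 genes called lower, F27 had covered 38.7% (31.0% and 49.4%) and F28 72.5% (63.0% and 86.1%). F27 animal 11 had gone farther than the other F27 lungs in both sets, with 59.3% against 33.9% and 45.7% in the rising genes and 59.0% against 27.4% and 29.8% in the falling genes. The F28 lungs were close to each other, at 81.8% to 83.9% in the rising and 66.7% to 79.6% in the falling genes.

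The genes named here are the 2 with the largest fold rise and the 2 with the largest fold fall among called genes that had at least 5 CPM in the higher phase and did not overlap between the phases. ENSOCUG00000005136 rose. It stood at 2.11, 1.94 and 0.799 CPM in the F25 lungs, 0.626, 2.13 and 3.78 CPM in the F27 lungs, 34.4, 7.69 and 20.1 CPM in the F28 lungs and 23.8, 31.4 and 13.5 CPM in the F29 lungs. The canalicular lungs lay together below 4 CPM, whereas the saccular lungs spread from 7.69 to 34.4 CPM. The log2 fold change was 3.51 (SE 0.42, adjusted p = 0.000792, edgeR's quasi-likelihood test, Benjamini-Hochberg adjusted). Its difference of 0.43 from F25 to F27 and 0.14 from F28 to F29 was small beside that of 3.24 from F27 to F28, which did not pass the test by itself (adjusted p = 0.0793). In run 3 its level was higher in the same animals: with all 54 libraries scaled together, F25 animal 13 had 1.72 CPM in run 1 and 4.33 CPM in run 3, and F28 animal 2 had 29.5 and 56.4 CPM.

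ENSOCUG00000034533 had the largest fitted rise and was found in only some saccular lungs. It had 0 CPM in the 3 F25 lungs and 0.156, 0 and 0 CPM in the F27 lungs. It stood at 7.29, 0.167 and 19.3 CPM in the F28 lungs and at 0.164, 9.81 and 0.158 CPM in the F29 lungs. Of the 6 saccular lungs, 3 thus held 44 to 124 counts each and the other 3 held 1 count each, the number seen in 1 canalicular lung, so that the groups were kept from overlapping only by the scaled library sizes. With 231 counts in the saccular and 1 in the canalicular libraries, the ratio of the shares of all counts, before scaling, was 225 with an exact counting interval of 39.9 to 8906 (95%), which leaves out the spread between animals. The fitted log2 fold change was 7.05 (SE 1.51, adjusted p = 0.00676, edgeR's quasi-likelihood test), and the call was lost with limma-voom (log2 fold change 4.12, adjusted p = 0.170) and with all runs and the animal as a random block (log2 fold change 3.88, adjusted p = 0.199). The gene passed the filter only through the 3 saccular lungs with 44 to 124 counts, so that its fold change and p are given as a description.

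ENSOCUG00000005775 fell between the phases, with lower values at each later day. It stood at 20.1, 19.7 and 23.7 CPM in the F25 lungs, 12.5, 6.22 and 5.51 CPM in the F27 lungs, 4.14, 4.68 and 4.98 CPM in the F28 lungs and 1.31, 2.13 and 2.69 CPM in the F29 lungs. No day overlapped with the next. The log2 fold change between the phases was -2.13 (SE 0.40, adjusted p = 0.00335, edgeR's quasi-likelihood test, Benjamini-Hochberg adjusted), and between the outer days it was -3.36 (adjusted p = 4.7e-05). Its level in the same animal was lower in the repeat runs. With all 54 libraries scaled together, F25 animal 13 had 17.5 CPM in run 1 and 8.24 CPM in run 3, and F28 animal 9 had 4.40 CPM in run 1 and 0.294 CPM in run 2. With all runs and the animal as a random block the log2 fold change was -2.01 (adjusted p = 0.00433).

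ENSOCUG00000017197 fell between the phases from uneven levels at F25. It stood at 3.41, 20.5 and 24.0 CPM in the F25 lungs, 3.60, 6.39 and 1.89 CPM in the F27 lungs, 1.16, 1.17 and 0.312 CPM in the F28 lungs and 1.64, 1.47 and 0.317 CPM in the F29 lungs. F25 animals 13 and 18 were high, while F25 animal 3 lay within the range of the F27 lungs. The log2 fold change was -3.28 (SE 0.66, adjusted p = 0.00505, edgeR's quasi-likelihood test, Benjamini-Hochberg adjusted), and with limma-voom the adjusted p was 0.0508, just above the threshold.

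**Figure D5:**
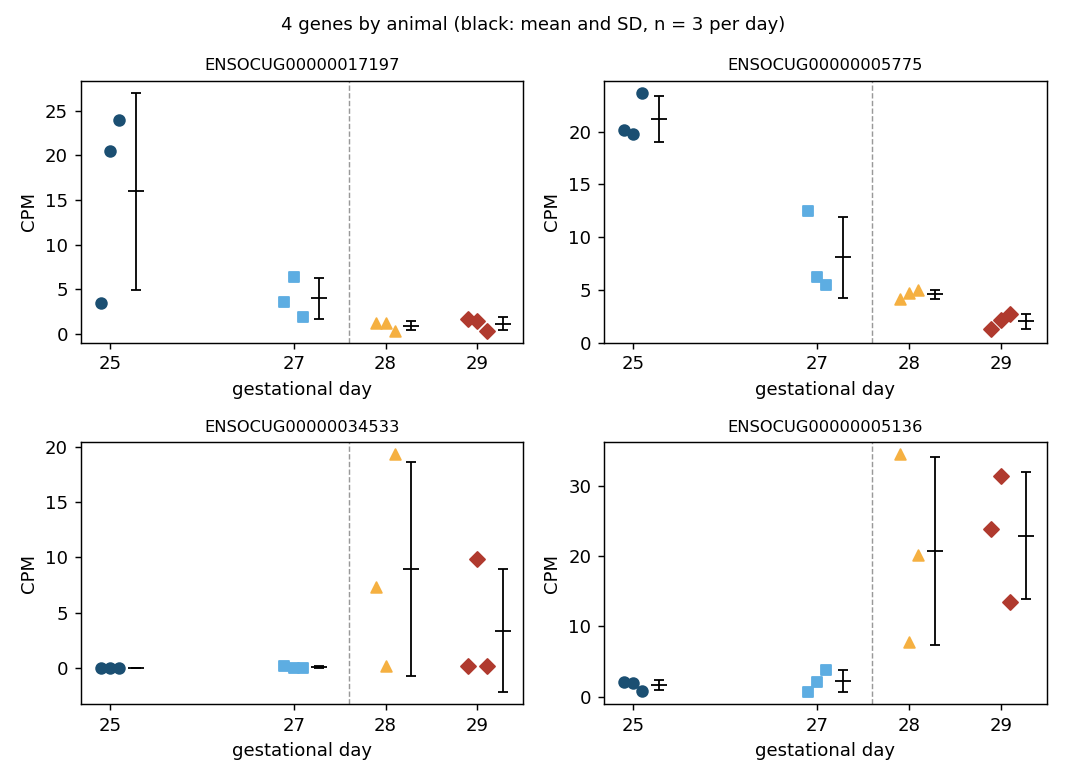
CPM of the 4 named genes (y axes, each panel on its own linear scale) by gestational day (x axis), with 1 point per animal and the mean and SD of the 3 animals of a day in black; the dashed line separates the phases. ENSOCUG00000005775 falls day by day, ENSOCUG00000005136 is higher in all saccular lungs, and ENSOCUG00000034533 is raised in 3 of the 6 saccular lungs.

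A difference between F28 and F25 lungs was also read in a second run for part of the animals, with no F27 or F29 lung. F25 animal 13 and F28 animals 2 and 7 were sequenced in run 3 as well as in run 1. In the genes called higher, the median log2 difference between these F28 and F25 lungs was 1.60 in run 1 and 1.60 in run 3. In the genes called lower it was -1.49 and -1.26, against -0.04 and 0.03 over all genes tested. The genes were called from run 1 libraries that included those of these lungs, so that the differences in both runs follow in part from that choice. In run 3 they do so because the animals helped to choose the genes. F25 animal 13 was the only F25 lung on which they rest. The animals are the same, so that run 3 is a second reading of the same RNA source and not of other lungs.

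Run 1 also held 3 lungs each of the alveolar time points T31 and T35. These pups were born naturally at term and breathed air, and the T35 pups had stayed with their mothers for 4 days, so that age, delivery and breathing cannot be told apart in a comparison with the fetuses. Relative to the canalicular mean, the genes called higher had a median log2 level of 1.23 at F28, 1.46 at F29, 1.28 at T31 and 1.38 at T35. The genes called lower had medians of -1.06, -1.43, -1.87 and -1.15, and single lungs of T35 ranged from -1.96 to -0.48. Single lungs ranged in the genes called higher from 1.36 to 1.61 at F29, 0.99 to 1.60 at T31 and 1.32 to 1.55 at T35, so that these groups overlapped. The genes were chosen for their levels at F28 and F29, and the medians are a description with no test.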

How the data were processed

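The authors trimmed the reads with BBduk, aligned them with STAR to OryCun2.0 and counted them per gene with HTSeq, after quality control with FastQC. They also used a script of their own for reads in 3′ UTRs missing from the annotation, and its reads could not be told from the others in the table. Versions are not given in the sources used here. The deposited values are raw counts per gene for 29587 identifiers, and 0 of these could be paired with a name.

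The 12 run 1 libraries of F25, F27, F28 and F29 were taken, with the animal as the replicate. Genes that reached 0.5 CPM in 3 or more libraries were kept. This minimum is about 3 reads at these depths, and fold changes close to it have wide errors. Counts were scaled by TMM and tested with edgeR 4.0.16 in R 4.3.3, with phase as the only factor, or with the time point as the factor for single days. Log2 CPM values carried a prior count of 2, and 0.5 was added to CPM where all runs or later groups were set side by side. The tests were checked on simulated counts in which 200 genes differed between the phases by a single step. The phase test of edgeR recovered 96% of them with 6 false calls, and the test of a step beside a trend 78% with 12. The smallest planted log2 change was close to 1.52, the median of the genes called higher. No change was planted in the genes of lowest level. The recovered shares thus do not hold for smaller changes or for such genes. A gradual change over the days was not simulated, so that the check does not cover it.

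The alternatives were DESeq2 1.42.0, limma-voom (limma 3.58.1), other scalings, no filter, at least 10 counts in every library, the adjusted p alone, glmTreat with a fold of 1.5, the time point as factor, all runs with the animal as a random block, a block by animal number and each animal left out. The genes named were the 2 with the largest rise and the 2 with the largest fall among called genes with at least 5 CPM in the higher phase and no overlap, since no names were paired. The libraries were taken by their labels alone, but this comparison of phases, its members and its tests were chosen with earlier results of these data known. Repeat libraries of these animals were used only where stated.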

Additional observations from a re-analysis of the deposited data

Results flagged for a closer look

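Among 28 groups of 6 values examined (library measures, component scores, shares of the called genes and the named genes, in each phase), 1 held an animal set apart from the other 5 by a gap of more than 0.625 of the range. It was ENSOCUG00000034533 in the canalicular lungs, where F27 animal 1 stood at 0.156 CPM and the other 5 at 0. That value is a single count. Chance alone sets 1 animal apart in about 1 of 20 such groups.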

How the results depend on the processing

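The count of genes called between the phases stayed within 1.5 times 766 in 19 of the other settings tried and left this range in 4. The adjusted p alone gave 1922 genes (1007 higher, 915 lower), at least 10 counts in every library gave 406 (206 and 200) of 9836 genes tested, and glmTreat gave 285 (157 and 128). Leaving out single animals gave 552 to 961 genes, 311 to 581 higher and 241 to 380 lower. The share of calls that were higher was 59.9%, against 50.7% under that count minimum and 54.6% with library sizes only, where the median of all genes was -0.07.

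With the replicate block by animal number, 0 genes were called between the phases by edgeR's quasi-likelihood test (0 higher, 0 lower), with 1426 at an unadjusted p under 0.05. The 8 numbers take up most of the residual degrees of freedom. Deviations from the time point means correlated at -0.04 to 0.08 in the 5 pairs with the same number and at -0.18 to 0.14 in the 49 others. None of the 5 pairs held an F25 lung, and whether the numbers pair animals was not tested. Only the numbers 7 and 11 occur in both phases. With the block the phase difference thus rests on F27, F28 and F29 lungs with these numbers, and on no F25 lung. All 4 named genes lost the call in this narrower comparison. The log2 fold changes went from 3.51 to 2.52 for ENSOCUG00000005136, from 7.05 to 6.96 for ENSOCUG00000034533, from -2.13 to -0.93 for ENSOCUG00000005775 and from -3.28 to -2.31 for ENSOCUG00000017197.

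Counts between single days moved with the setting. Between F27 and F25 the count of 1 became 125 with DESeq2, 0 with limma-voom, 89 with no filter, 5 under the minimum of 10 counts, and 0 to 49 with animals left out. Between F28 and F27 the count of 4 became 113, 0 and 50 with the first 3 of these, and 0 to 77 with animals left out. Between F29 and F28 the 0 became 15 with DESeq2, 6 with no filter and 0 to 3 with animals left out. Between F29 and F25 the 1170 became 741 under the minimum of 10 counts, 2416 with the adjusted p alone and 903 to 1198 with animals left out. The step beside a linear trend went from 0 to 4 genes with DESeq2 and stayed at 0 with animals left out. The causes were not tested.

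Of the named genes, ENSOCUG00000034533 was not tested when F28 animal 2, F28 animal 9 or F29 animal 7 was left out, because it then failed the filter. With animals left out the log2 fold changes were 3.33 to 3.83 for ENSOCUG00000005136, 6.89 to 8.26 for ENSOCUG00000034533, -2.30 to -1.94 for ENSOCUG00000005775 and -3.50 to -2.81 for ENSOCUG00000017197.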

Other observations

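ENSOCUG00000034533 was either present or nearly absent in each animal of the whole series. Of 45 animals, 21 had 44 to 329 counts in every library read from them, 24 had at most 3, and 0 lay between. The 6 animals read in more than 1 run stayed on the same side in every run. It was present in 3 of 4 lungs at F20 and 4 of 4 at F23, in 0 of 6 at F25 and F27, and in 2 of 3 at F28 and 1 of 3 at F29. In pups born naturally at term and kept with their mothers it was present in 2 of 6 at T31, 1 of 3 at T35, 1 of 4 at T37 and 1 of 3 at T42. In pups delivered preterm by caesarean section and kept in room air until the lungs were taken it was present in 1 of 3 at P0, 2 of 3 at P3 and 3 of 3 at P7. The level of a present animal also changed between runs: F28 animal 2 had 6.25 CPM in run 1, 21.9 CPM in run 2 and 22.8 CPM in run 3. The pattern by animal was noticed after the values were seen, and its source was not tested.

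ENSOCUG00000017197, which fell between the phases, was higher still before them, with 80.1 to 90.1 CPM in the 4 lungs at F20 and 59.8 to 94.95 CPM in the 4 at F23. These were read in run 3, and F25 animal 13 had 18.3 CPM in run 1 and 21.0 CPM in run 3. In the term pups of T31 and T35 in run 1 it stood at 0.134 to 1.75 CPM.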
